A study of Mus musculus with 18 samples.

Results

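The genes described here encode the subunits of mTORC1, mTORC2 and the TSC complex, together with the GTPase Rheb that links them. They are 10 of the 22787 mouse genes in the deposited table and were taken by symbol. Earlier results of these data were known when they were chosen. All 10 were found, and all 10 passed the filter on low values in each of the 7 comparisons. They are Rptor, Tsc2, Tsc1, Tbc1d7, Mtor, Mlst8, Rictor, Mapkap1, Akt1s1 and Rheb.

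Mtor encodes a kinase that works in 2 complexes. In mTORC1 it binds raptor (Rptor) and promotes protein, lipid and nucleotide synthesis, and in mTORC2 it binds rictor (Rictor) and mSIN1 (Mapkap1) and phosphorylates Akt. Mlst8 is a subunit of both, and PRAS40 (Akt1s1) is an inhibitory partner of mTORC1. The TSC complex of hamartin (Tsc1), tuberin (Tsc2) and Tbc1d7 switches Rheb off, and active Rheb turns mTORC1 on at the lysosome. In blood formation this pathway is known for setting the growth and metabolism of progenitors.

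RNA was measured by SmartSeq2, a low-input method that does not mark the strand, in 18 libraries. The 12 libraries from mouse marrow came from granulocyte-monocyte progenitors (GMPs), which give rise to neutrophils and monocytes. They were sorted at 10000 cells per sample as Raptor KO and Raptor fl/fl, and as Tsc2 KO and Tsc2 fl/fl, with 3 libraries each. The other 6 were DR-ER-Hoxb8 cells, 1 cultured progenitor line kept immature by estrogen-dependent Hoxb8 and differentiated for 3 days in SCF medium from which b-estradiol was withdrawn, with rapamycin at 100 nM, with SL0101 at 10 nM or with DMSO, 2 libraries each. Rapamycin inhibits mTORC1 and SL0101 inhibits the RSK kinases. Groups follow the sample titles, since the genotype field of the Tsc2 libraries names Raptor. In fl/fl animals both copies of the gene carry recombinase sites. The Cre driver, the excised exons and the ages are not given in the sources used here, nor is it stated whether replicates came from separate animals or cultures, so p-values measure the spread between these libraries. No protein and no mTORC1 activity was measured.

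A GMP library carried between 2.48 and 3.52 M fragments and a Hoxb8 library between 2.31 and 3.30 M. Values are fragments of a gene scaled by the library's size factor and are called units here, and each member value came from 25 to 490 fragments. All 9 GMP markers were detected in GMPs, with a summed level of 63941 to 66420 units in Raptor KO and 70420 to 81029 in Raptor fl/fl. In Tsc2 KO it was 8712 to 40515 and in Tsc2 fl/fl 36775 to 82532. Of the 9, 1 passed in Raptor KO (Kit, higher, limma adjusted p = 0.00757) and 3 in Tsc2 KO, all lower. A further list held Ly6a, Il7r and Flt3. Flt3 rose in Raptor KO (limma adjusted p = 0.0273), and Flt3 and Ly6a fell in Tsc2 KO (limma adjusted p = 0.0204 and 0.0325). Of 8 B lymphoid markers, 7 fell in Raptor KO (summed 106 to 148 units, against 740.3 to 1067 in Raptor fl/fl) and 6 fell in Tsc2 KO (20.7 to 74.2 units, against 328 to 539 in Tsc2 fl/fl). Of 7 macrophage markers in the table, 1 rose in Raptor KO (summed 330 to 887 units, against 116 to 197 in Raptor fl/fl) and 4 rose in Tsc2 KO (453 to 719 units, against 16.9 to 71.5 in Tsc2 fl/fl). The marker that rose in Raptor KO was Gpnmb, with a mean of 384 units in Raptor KO and 1.87 in Raptor fl/fl. The other 6 did not pass the test. Of these, Cd68, C1qb and C1qc had higher means in Raptor KO (167, 46.9 and 15.6 units, against 57.5, 20.4 and 10.1). C1qa, Vcam1 and Mrc1 had lower means (9.56, 13.8 and 4.4 units, against 16.9, 31.1 and 20.8). Of 8 erythroid markers, 3 fell in Raptor KO (880 to 995 units, against 2309 to 2571) and 2 rose in Tsc2 KO (7433 to 14665 units, against 1579 to 6336). In Hoxb8 DMSO the macrophage markers summed to 261 to 317 units, 2 of 7 (Cd68 and Gpnmb) being higher than in fl/fl GMPs and 5 lower, and C1qa and Mrc1 were at 0 in all 6 Hoxb8 libraries. Their sum was 119 to 168 units with rapamycin and 91.8 to 130.3 with SL0101, where Cd68 and Gpnmb fell with both inhibitors and Vcam1 rose with SL0101. These macrophage markers were named after their values were seen. In bulk RNA, fewer cells of a type and less RNA per cell cannot be told apart, and the part of these cell-type markers in the results below was not tested. The summed level of 4 Y-linked genes was 318 units in Tsc2 KO replicate 2, 385 in Tsc2 fl/fl replicate 2 and at most 0.778 in the other GMP libraries. These 2 libraries are therefore called male, and results in the Tsc2 line were also computed without them. Tsc2 fl/fl replicate 2 also differed in its highest gene, which held 1.09% of its units, against 2.16% and 2.24% in replicates 1 and 3. Leaving out the male libraries thus does not change sex alone.

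The promoters of the 5 members that passed a test in any comparison are given as the 250 bases before the RefSeq start (GRCm38.p6), 5′ to 3′ on the gene's strand. Capitals mark the motifs searched on both strands: the ETS motif CCGGAAGT, the E-box CACGTG, the GC box GGGCGG and the CRE TGACGTCA.
Tsc2 promoter (chr17:24632628-24632877, minus strand): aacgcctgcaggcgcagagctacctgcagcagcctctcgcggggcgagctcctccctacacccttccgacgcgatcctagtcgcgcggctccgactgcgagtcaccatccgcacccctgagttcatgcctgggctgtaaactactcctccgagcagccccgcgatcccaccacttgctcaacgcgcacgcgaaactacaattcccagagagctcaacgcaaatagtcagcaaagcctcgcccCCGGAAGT
Mlst8 promoter (chr17:24479079-24479328, minus strand): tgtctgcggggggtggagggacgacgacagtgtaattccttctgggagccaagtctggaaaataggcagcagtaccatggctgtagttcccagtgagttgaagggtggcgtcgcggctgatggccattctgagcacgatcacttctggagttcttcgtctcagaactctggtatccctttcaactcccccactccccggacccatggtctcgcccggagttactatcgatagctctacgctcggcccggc
Rictor promoter (chr15:6708131-6708380, plus strand): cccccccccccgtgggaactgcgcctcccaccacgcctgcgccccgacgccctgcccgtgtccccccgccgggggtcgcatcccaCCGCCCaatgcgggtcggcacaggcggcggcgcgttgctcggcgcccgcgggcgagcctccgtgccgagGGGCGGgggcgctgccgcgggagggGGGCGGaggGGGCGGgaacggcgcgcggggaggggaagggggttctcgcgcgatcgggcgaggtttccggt
Akt1s1 promoter (chr7:44850122-44850371, plus strand): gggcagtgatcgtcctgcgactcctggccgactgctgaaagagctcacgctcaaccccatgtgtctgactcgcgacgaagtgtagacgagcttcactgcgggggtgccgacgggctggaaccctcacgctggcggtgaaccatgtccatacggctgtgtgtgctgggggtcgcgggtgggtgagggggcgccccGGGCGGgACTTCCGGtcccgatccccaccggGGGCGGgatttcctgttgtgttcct
Rheb promoter (chr5:24842362-24842611, minus strand): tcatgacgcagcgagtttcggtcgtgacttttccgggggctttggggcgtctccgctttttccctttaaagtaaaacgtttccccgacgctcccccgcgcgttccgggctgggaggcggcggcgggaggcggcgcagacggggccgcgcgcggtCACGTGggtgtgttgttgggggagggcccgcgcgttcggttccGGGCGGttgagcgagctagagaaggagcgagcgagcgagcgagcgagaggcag
Tsc2 held the ETS motif at its start, Akt1s1 held ETS and GC box matches, Rictor held 4 GC boxes and Rheb held an E-box and a GC box, while the Mlst8 window held none of these letters. Over all 10 members, the ETS motif was in the promoters of 4 (Tsc2, Mtor, Mapkap1 and Akt1s1), against 2.88% of all 32851 promoters of this length. For Mtor, Akt1s1 and the Mapkap1 window that holds the ETS motif, the bases after the start were not found in a GENCODE transcript. These starts are therefore less certain. The E-box was in 2 (Tbc1d7 and Rheb), against 6.02% of all promoters, and the GC box in 5, against 32.7%. The CRE was in none of the members' promoters, against 1.55% of all, and the CLEAR motif was in none, against 0.24%. Member counts are of genes with a match in any of their 11 promoters, while the shares are over single promoters of all genes, measured here or not. The 2 are therefore not a like comparison, and enrichment was not tested. A match describes letters and not a bound site.

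The first question is how much signal of the targeted gene was left in each knockout. Rptor, which encodes the raptor scaffold, stood at 61.5, 58.7 and 69.5 units in Raptor KO, against 88.0, 78.6 and 86.8 units in Raptor fl/fl. Each Raptor KO library lay below each Raptor fl/fl library by a small margin, the nearest pair being 69.5 and 78.6 units. The fitted Rptor level in Raptor KO was 75.1% of Raptor fl/fl (95% interval 52.9% to 106%), a log2 fold change of -0.41 (SE 0.24, limma adjusted p = 0.377). This did not pass, and none of 16 alternative analyses called it (log2 fold change -0.48 to -0.36). The KO libraries held 87, 79 and 74 Rptor fragments, whose counting intervals of 49.3 to 75.9, 46.5 to 73.2 and 54.6 to 87.3 units exclude a level near 0. Fragments were summed over the whole gene, so this level does not measure how many copies were excised. An antisense gene, Rptoros, shares 84 exon bases with Rptor and held at most 3.72 units in any library.

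Tsc2, which encodes the GTPase-activating subunit of the TSC complex, stood at 103, 99.0 and 83.0 units in Tsc2 KO, against 269, 235 and 241 units in Tsc2 fl/fl. The groups were far apart, and the highest Tsc2 KO library held less Tsc2 than any library of the other 6 groups. The fitted level in Tsc2 KO was 38.5% of Tsc2 fl/fl (95% interval 29.5% to 50.1%), a log2 fold change of -1.38 (SE 0.18, limma adjusted p = 0.000169). All 17 alternatives called it, among them the fit without both male libraries (-1.45, adjusted p = 0.000623). The remaining signal rested on 156, 144 and 112 fragments. In the annotation, 693 exon bases of Tsc2 (10.9% of its exon length) overlap Pkd1, the polycystin-1 gene on the other strand, and reads there cannot be assigned without strand. Pkd1 stood at 62.1 ± 13.1 units in Tsc2 KO and 106.6 ± 18.1 units in Tsc2 fl/fl (SD, n = 3 each), with a log2 fold change of -0.78 (limma adjusted p = 0.0503).

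Each targeted gene was also measured in the other line. Tsc2 stood at 221, 225 and 177 units in Raptor KO, against 293, 277 and 188 units in Raptor fl/fl, and these ranges overlapped (log2 fold change -0.26, limma adjusted p = 0.467). The change of Tsc2 in the Raptor line minus that in the Tsc2 line was 1.11 (SE 0.26, limma adjusted p = 0.00981), and Tsc2 was the 1 of 10 members whose change differed between the lines, against 12.4% of genes. Rptor stood at 95.5, 99.0 and 61.5 units in Tsc2 KO, against 76.3, 124 and 79.0 units in Tsc2 fl/fl, again with overlap (log2 fold change -0.12, limma adjusted p = 0.807). For Rptor the difference between the lines was -0.30 (95% interval -1.01 to 0.42, limma adjusted p = 0.619), so a difference between the lines was not detected for this gene.

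**Figure D1:**
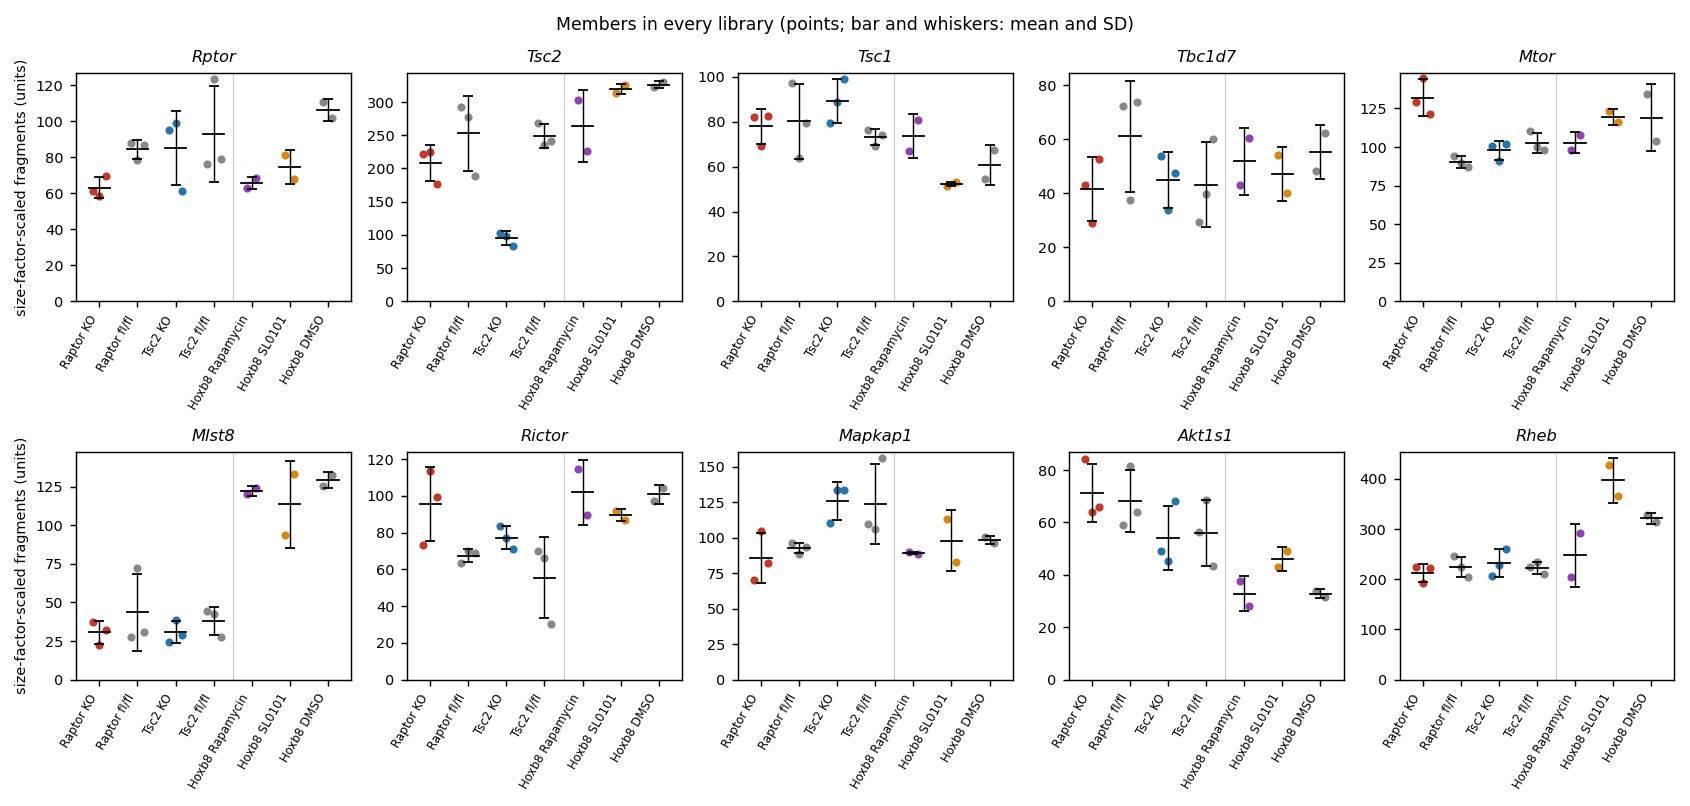
Units (fragments scaled by a size factor) of each of the 10 members in every library; points are libraries and the bar with whiskers is the mean and SD of a group. Tsc2 in Tsc2 KO lies far below Tsc2 fl/fl, while the Rptor libraries of Raptor KO lie just below those of Raptor fl/fl. Mlst8 is higher in each Hoxb8 library than in each GMP library, the nearest being 93.6 units (Hoxb8 SL0101) and 72.4 units (Raptor fl/fl).

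Across the members, 0 of 10 passed in Raptor KO, against 3.94% of the 13237 genes tested, and 1 of 10 had an unadjusted p under 0.05 (Mtor), against 19% of genes. With limma-voom weights 0 of 10 passed as well. In Tsc2 KO 1 of 10 passed, Tsc2 itself, against 12.4% of genes. The median log2 fold change of the members was -0.10 in Raptor KO and -0.00 in Tsc2 KO, beside medians of 0.03 and -0.02 over all genes. Read against that background, Tsc2 was the sole member of the 3 complexes called in either knockout, and a share of 1 in 10 is near the share of all genes.

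Mtor, the shared kinase, gave the lowest adjusted p of the members in Raptor KO. It stood at 129, 145 and 121 units in Raptor KO, against 94.5, 89.5 and 86.8 units in Raptor fl/fl, with no overlap (log2 fold change 0.54, SE 0.18, limma adjusted p = 0.0921). In Tsc2 KO it stood at 101, 90.8 and 102 units, against 110.1, 99.8 and 97.8 units in Tsc2 fl/fl (-0.07, limma adjusted p = 0.858). Neither change of Mtor passed, and the difference between them did not pass either (0.60, limma adjusted p = 0.124).

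Rictor, the defining subunit of mTORC2, was above its control in each library of both knockouts without passing in either. It stood at 73.6, 114 and 99.6 units in Raptor KO, against 63.5, 70.1 and 69.0 units in Raptor fl/fl (log2 fold change 0.47, limma adjusted p = 0.386). In Tsc2 KO it stood at 83.5, 77.0 and 71.1 units, against 70.2, 66.0 and 30.1 units in Tsc2 fl/fl (0.56, limma adjusted p = 0.209). Libraries did not overlap, higher in the knockout, for 2 of 10 members in each line (Mtor and Rictor in Raptor KO, Tsc1 and Rictor in Tsc2 KO), against 13.3% of all genes in Raptor KO and 14.6% in Tsc2 KO. In Raptor KO 1 of 10 members, Rptor, lay lower without overlap, against 13.1% of genes. The lowest of these values, 30.1 units in Tsc2 fl/fl replicate 3, stood well below its 2 fellow libraries.

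Gene length moved with the change in Raptor KO. Over the 8602 tested genes with a known exon length and a mean of at least 20 units in the Raptor line, the median log2 fold change was -0.29 for genes under 1 kb of exon sequence, -0.12 for 1 to 2 kb, -0.00 for 2 to 4 kb, 0.10 for 4 to 8 kb and 0.18 for 8 kb or more. Mtor and Rictor, with 8785 and 9312 exon bases, are in the longest class and lie above its upper quartile of 0.39. Rptor, with 6594 bases, lies in the class of 4 to 8 kb and below its lower quartile of -0.15, as does Tsc2, and Mlst8 and Tbc1d7 lie below the lower quartiles of their classes. In Tsc2 KO the class medians over 8440 genes were between -0.10 and 0.06. The part of length in these changes was not tested.

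**Figure D2:**
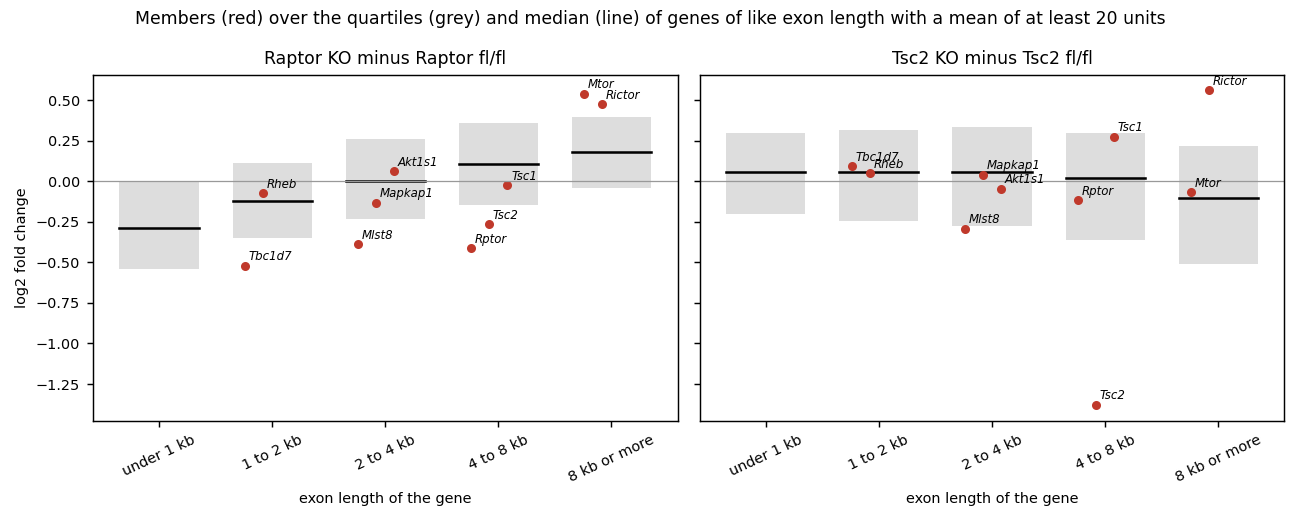
Log2 fold change of the members (red points) in Raptor KO minus Raptor fl/fl and Tsc2 KO minus Tsc2 fl/fl, by exon length of the gene; grey boxes are the quartiles and lines the medians of genes of that length with a mean of at least 20 units. In Raptor KO the medians climb from -0.29 to 0.18 with length, Mtor and Rictor lie above the box of the longest genes and Rptor lies below its own.

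The remaining members did not pass in either knockout. Tsc1, the scaffold of the TSC complex, stood at 79.6, 88.7 and 99.3 units in Tsc2 KO, against 76.3, 69.4 and 74.3 units in Tsc2 fl/fl, with no overlap (log2 fold change 0.27, 95% interval -0.17 to 0.72, limma adjusted p = 0.451). In Raptor KO it averaged 78.0 ± 7.7 units, and in Raptor fl/fl 80.3 ± 16.8 units (SD, n = 3 each). Rheb averaged 213 ± 17.9 units in Raptor KO and 224 ± 20.8 in Raptor fl/fl, and 232 ± 27.7 units in Tsc2 KO and 223 ± 11.9 in Tsc2 fl/fl. Its intervals were the narrowest of the members: between -0.38 and 0.24 in Raptor KO and between -0.26 and 0.36 in Tsc2 KO on the log2 scale.

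Mlst8, Tbc1d7, Mapkap1 and Akt1s1 overlapped their controls in both knockouts. Mlst8 averaged 30.6 ± 7.7 units in Raptor KO and 43.6 ± 25.04 in Raptor fl/fl, where replicate 2 at 72.4 units stood far above 27.4 and 30.8 units. Tbc1d7 averaged 41.6 ± 11.9 units in Raptor KO and 61.1 ± 20.6 in Raptor fl/fl. Their 95% intervals were the widest of the members, -1.17 to 0.39 for Mlst8 and -1.24 to 0.20 for Tbc1d7 in Raptor KO. Mapkap1 averaged 85.5 ± 17.7 units in Raptor KO and 92.7 ± 3.6 in Raptor fl/fl, and Akt1s1 averaged 71.3 ± 11.2 and 68.3 ± 11.9 units in the same groups. In the Tsc2 line, log2 fold changes of these 4 genes were -0.29 for Mlst8, 0.09 for Tbc1d7, 0.04 for Mapkap1 and -0.05 for Akt1s1.

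Ratios of 2 members within a library do not depend on its size factor. The ratio of Rptor to Mtor was 0.485 ± 0.085 in Raptor KO and 0.937 ± 0.061 in Raptor fl/fl (SD, n = 3 each), a fold of 0.513. That of Rptor to Rictor was 0.684 ± 0.161 in Raptor KO and 1.26 ± 0.13 in Raptor fl/fl. That of Tsc2 to Tsc1 was 1.08 ± 0.23 in Tsc2 KO and 3.38 ± 0.14 in Tsc2 fl/fl, a fold of 0.315. That of Mlst8 to Mtor was 0.236 ± 0.072 in Raptor KO and 0.485 ± 0.283 in Raptor fl/fl, a fold of 0.520, about as low as that of Rptor to Mtor. In each of these 4 the groups did not overlap, and the two-sided exact permutation p was 0.1, the smallest that 3 against 3 libraries allow (0.24 after Benjamini-Hochberg adjustment over 12 ratio tests). For Mlst8 to Mtor the groups nearly touched, with a highest of 0.2896 in Raptor KO and a lowest of 0.2901 in Raptor fl/fl. The highest Raptor fl/fl library stood at 0.809 for that ratio. Mtor and Rictor were themselves above their controls in each Raptor KO library, so these Raptor KO ratios lie further from their control than Rptor or Mlst8 alone. The ratio of Rictor to Mtor, the kinase of both complexes, was 0.725 ± 0.137 in Raptor KO and 0.750 ± 0.068 in Raptor fl/fl, with overlap, and 0.791 ± 0.083 in Tsc2 KO and 0.536 ± 0.198 in Tsc2 fl/fl, without (exact permutation p = 0.1).

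**Figure D3:**
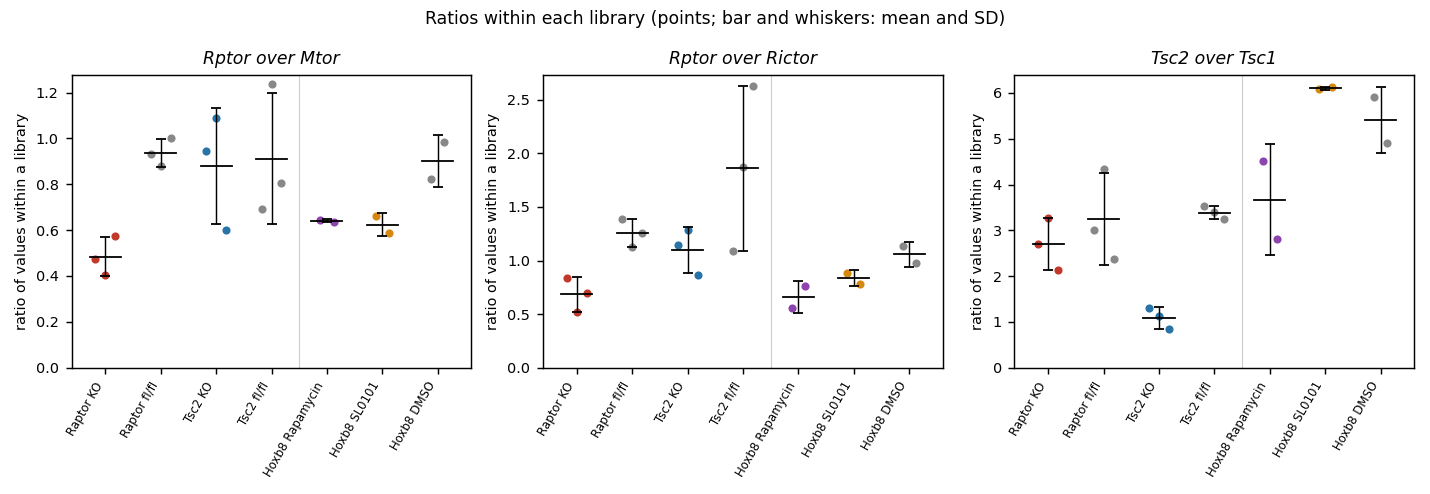
Ratio of the values of 2 members within each library for Rptor over Mtor, Rptor over Rictor and Tsc2 over Tsc1; points are libraries and the bar with whiskers is the mean and SD of a group. Rptor over Mtor lies at 0.405 to 0.574 in Raptor KO and 0.878 to 1.00 in Raptor fl/fl, and Tsc2 over Tsc1 lies at 0.836 to 1.30 in Tsc2 KO and 3.24 to 3.52 in Tsc2 fl/fl.

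In Hoxb8 cells the question is whether these kinase inhibitors shift the RNA of the complexes' own subunits. With rapamycin 0 of 10 members passed, against 11.7% of the 11804 genes tested, and with SL0101 0 of 10, against 10.9%; at an unadjusted p under 0.05 there were 2 members (24.4% of genes) and 1 member (23.9%), and with limma-voom weights 1 (Rptor) and 0 members passed. Both comparisons use the same 2 DMSO libraries. Rptor stood at 63.2 and 68.3 units with rapamycin and 81.3 and 68.2 units with SL0101, against 111 and 102 units in DMSO. All 4 inhibitor libraries lay below both DMSO libraries. The log2 fold change was -0.68 with rapamycin (SE 0.23, limma adjusted p = 0.0533) and -0.51 with SL0101 (SE 0.23, limma adjusted p = 0.172). The rapamycin value sat at the threshold and passed in 5 of 14 alternatives, with adjusted p between 0.0306 and 0.287. Libraries did not overlap, lower than DMSO, for 5 of 10 members with rapamycin, against 27% of all genes, and for 3 of 10 with SL0101, against 28.2%.

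Rheb, the GTPase that activates mTORC1, differed between the inhibitors. It stood at 203 and 291 units with rapamycin and 429 and 365 units with SL0101, against 329 and 314 units in DMSO. The rapamycin libraries were below and the SL0101 libraries above DMSO, but neither change passed on its own (log2 fold change -0.40 with limma adjusted p = 0.156, and 0.30 with limma adjusted p = 0.311). The rapamycin change of Rheb was -0.66 and passed without rapamycin replicate 2 (adjusted p = 0.0226), and was -0.14 without rapamycin replicate 1 (adjusted p = 0.685). Rapamycin set directly against SL0101, a comparison added after the values were seen, called 1 of 10 members, Rheb, against 8.87% of genes (-0.70, SE 0.17, limma adjusted p = 0.0151). This call was kept in 10 of 14 alternatives, and was lost without rapamycin replicate 1 (-0.44, adjusted p = 0.132) and without SL0101 replicate 1 (-0.58, adjusted p = 0.205).

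The other members did not pass with either inhibitor. Tsc2 stood at 302 and 226 units with rapamycin and 314 and 325 units with SL0101, against 322 and 329 units in DMSO. Mtor stood at 98.1 and 108 units with rapamycin and 123 and 116 units with SL0101, against 134 and 104 units in DMSO. Akt1s1, the gene of PRAS40, stood at 37.6 and 27.995 units with rapamycin and 42.9 and 49.3 units with SL0101, against 34.0 and 31.5 units in DMSO (limma adjusted p = 0.988 and 0.372). Both SL0101 libraries were thus above DMSO for Akt1s1, while the rapamycin libraries lay on either side. Tsc1, Tbc1d7, Mlst8, Rictor and Mapkap1 had log2 fold changes between -0.23 and 0.27 against DMSO. Beside these, the 9 GMP markers summed to 56912 to 58306 units with rapamycin, 24715 to 31688 with SL0101 and 11627 to 12493 in DMSO. Mpo alone averaged 41158, 17468 and 6470 units there. With each inhibitor 5 of the 9 passed as higher, while with SL0101 Fcgr3, Cd34 and Csf3r had means below DMSO without passing. The 8 neutrophil maturation markers summed to 62729 to 96714, 54159 to 81528 and 114832 to 159357 units. Of these, 2 passed as lower with rapamycin and 4 with SL0101. With rapamycin, Mmp8 and Cebpe had means above DMSO without passing. The part of these markers in the members' values was not tested.

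**Figure D4:**
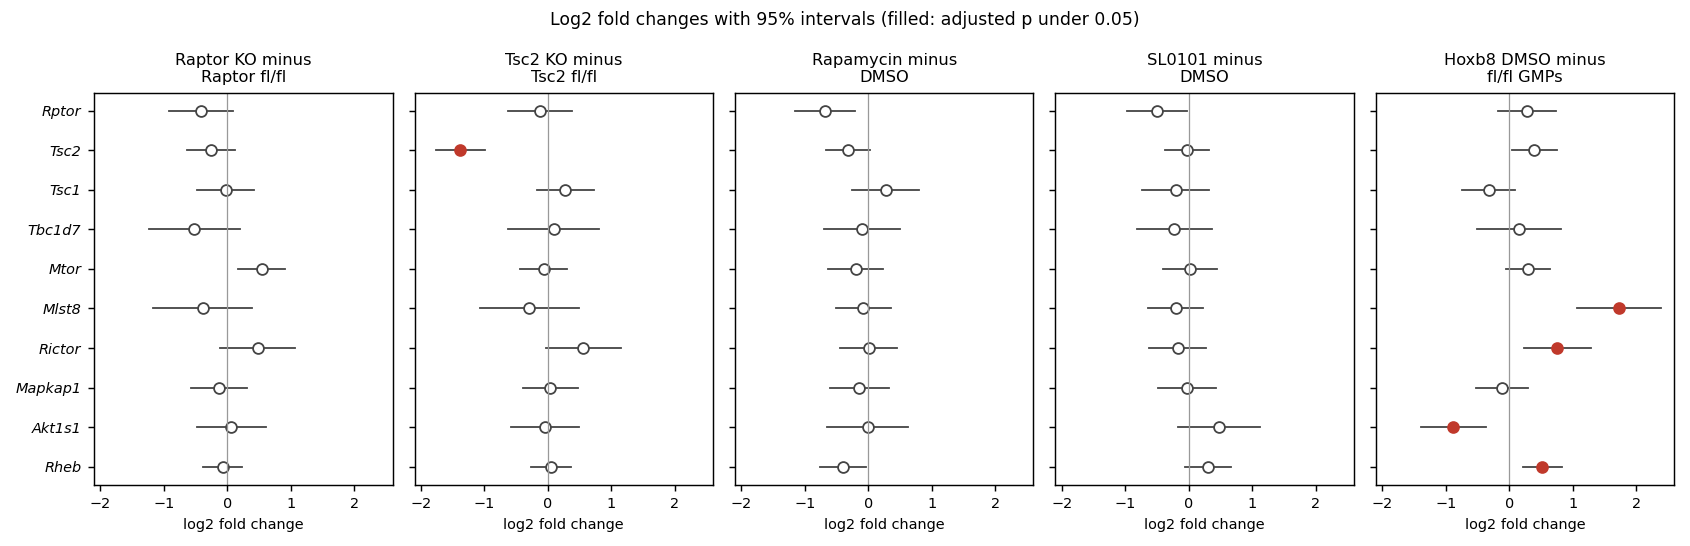
Log2 fold change of each member with its 95% interval in 5 comparisons; filled points have a limma adjusted p under 0.05. Tsc2 is called in Tsc2 KO, no member is called in Raptor KO or with either inhibitor, and Mlst8, Rictor, Akt1s1 and Rheb are called between Hoxb8 cells and GMPs.

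The last comparison sets the cell systems side by side. Hoxb8 DMSO cells set against all 6 fl/fl GMP libraries called 4 of 10 members, 3 higher and 1 lower, against 49.7% of the 14397 genes tested, so the share is below that of all genes. Mlst8 stood at 126 and 133 units in Hoxb8 DMSO, against 27.4, 72.4 and 30.8 units in Raptor fl/fl and 44.2, 42.3 and 27.3 units in Tsc2 fl/fl. It was higher in both Hoxb8 DMSO libraries than in every fl/fl library (log2 fold change 1.73, SE 0.32, limma adjusted p = 8.66e-05), and all 19 alternatives called it. Of its exon length, 25.6% is shared with Bricd5 on the other strand, which stood at 26.7 ± 0.9 units in Hoxb8 DMSO (n = 2), 8.7 ± 5.5 in Raptor fl/fl and 10.7 ± 2.7 in Tsc2 fl/fl (n = 3 each), with a log2 fold change of 1.48 (limma adjusted p = 0.00893). Reads of Mlst8 and Bricd5 cannot be told apart where the genes overlap.

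The other 3 calls were smaller. Rictor stood at 97.2 and 105 units in Hoxb8 DMSO and at 30.1 to 70.2 units in the fl/fl GMPs (log2 fold change 0.76, limma adjusted p = 0.0164). Rheb stood at 329 and 314 units in Hoxb8 DMSO and at 204 to 245 units in the fl/fl GMPs (0.52, limma adjusted p = 0.0054). Akt1s1 was the 1 member to fall, with 34.0 and 31.5 units in Hoxb8 DMSO and 43.3 to 81.7 units in the fl/fl GMPs (-0.88, limma adjusted p = 0.00506). Each of these 3 calls was lost when 1 DMSO library was left out: Rictor without replicate 1 and without replicate 2, Rheb without replicate 1 and Akt1s1 without replicate 2. Over all fits without 1 library, the log2 fold change was 0.57 to 0.87 for Rictor, 0.49 to 0.56 for Rheb and -0.97 to -0.80 for Akt1s1. Tsc2 had a log2 fold change of 0.39 and missed the threshold (limma adjusted p = 0.0595; 0.0326 and 0.0457 when replicate 1 or replicate 2 of Raptor fl/fl was left out). The median of all genes was -0.15 here, and the class medians by exon length, over genes with a mean of at least 20 units, were between -0.65 under 1 kb and 0.13 at 4 to 8 kb. The 8 neutrophil maturation markers were all higher in Hoxb8 DMSO (summed 114832 to 159357 units, against 459 to 1913 units in the fl/fl GMPs). Tissue origin, culture and preparation cannot be told apart in this comparison.

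Over all 7 groups the order of the Rptor means ran Hoxb8 DMSO 106 units, Tsc2 fl/fl 92.9, Tsc2 KO 85.3, Raptor fl/fl 84.5, Hoxb8 SL0101 74.8, Hoxb8 Rapamycin 65.8 and Raptor KO 63.3 units. Each neighbouring pair in that order had overlapping libraries. For Tsc2 the order ran Hoxb8 DMSO 326 units, Hoxb8 SL0101 319.5, Hoxb8 Rapamycin 264, Raptor fl/fl 253, Tsc2 fl/fl 248, Raptor KO 208 and Tsc2 KO 95.1 units. The libraries of Hoxb8 Rapamycin lay below those of Hoxb8 SL0101, those of Raptor KO below those of Tsc2 fl/fl and those of Tsc2 KO below those of Raptor KO, while the other neighbours overlapped. Mlst8 split by system, with group means of 113 to 129 units in Hoxb8 cells and 30.6 to 43.6 units in GMPs.

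Levels of different genes can be set side by side per kb of exon. Rheb was the highest member in all 7 groups, at 119 to 222 units per kb. Tsc2 ranked 5 of 10 in Tsc2 KO at 15.0 ± 1.7 units per kb, close to Rptor at 12.9 ± 3.1 and Tsc1 at 11.5 ± 1.3 units per kb there, and ranked 2 of 10 in Tsc2 fl/fl at 39.2 ± 2.8 units per kb (n = 3 each). Rictor was the lowest member in Raptor fl/fl and Tsc2 fl/fl, at 7.2 ± 0.4 and 6.0 ± 2.4 units per kb, whereas in Hoxb8 cells Tsc1 was lowest, at 6.8 to 9.5 units per kb. These densities use all annotated exons of a gene and would shift with the transcripts in use.

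Among 8970 genes with a mean of at least 20 units in the 12 GMP libraries, those whose log2 values were most like Rptor were the linker histone genes Hist1h1b (Pearson r = 0.83) and Hist1h1e (0.82) and Tyms (0.80), which encodes thymidylate synthase. Hist1h1b averaged 22.7 ± 2.7 units in Raptor KO and 46.6 ± 4.0 in Raptor fl/fl, and 41.5 ± 9.9 units in Tsc2 KO and 39.4 ± 6.4 in Tsc2 fl/fl. Most like Tsc2 were Tst (0.96), the gene of the mitochondrial sulfur enzyme rhodanese, Ctla2a (0.95) and Phkb (0.94), a phosphorylase kinase subunit. Tst averaged 38.8 ± 2.9 units in Tsc2 KO and 89.8 ± 20.4 in Tsc2 fl/fl. These points share libraries and groups, so r includes group differences.

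Around the complexes, 6 lists held 82 genes that sense amino acids, carry growth factor and energy signals, assist assembly or are substrates. The lists were chosen with earlier results of these data known, so their shares beside those of all genes are descriptions only. In Raptor KO 1 of 82 passed and it fell, beside 2.42% of all genes that fell and 1.53% that rose. That gene was Sesn1, sestrin 1, a stress-induced inhibitor of mTORC1 that acts through the GATOR complexes, at 39.6, 59.5 and 74.2 units in Raptor KO, against 137, 155 and 133 units in Raptor fl/fl. The groups were far apart (log2 fold change -1.32, SE 0.22, limma adjusted p = 0.00238) and all 16 alternatives called it. Its log2 fold change in the Raptor line was lower than in the Tsc2 line by 1.18 (limma adjusted p = 0.0199; 0.0554 without Tsc2 KO replicate 2). Dropping trend and robust estimation also ended this call (0.0579).

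In Tsc2 KO 10 of 82 rose, against 5.26% of all genes, and 5 fell, against 7.12%. Among 23 genes of PI3K-Akt and AMPK input to TSC, 4 rose and 4 fell, and 3 of the 4 that rose encode subunits of AMPK, the energy sensor that phosphorylates tuberin and raptor. Prkab1, its beta 1 subunit, stood at 394, 645 and 699 units in Tsc2 KO, against 194, 316 and 206 units in Tsc2 fl/fl (log2 fold change 1.27, limma adjusted p = 0.00174). Prkaa1, the catalytic alpha 1 subunit, stood at 150.5, 221 and 236 units in Tsc2 KO, against 85.0, 92.2 and 94.99 units in Tsc2 fl/fl (1.12, limma adjusted p = 0.0033). Each Tsc2 KO library was above each control for both genes, and all 17 alternatives called both. Prkag1, the gamma 1 subunit, had a log2 fold change of 0.60 (limma adjusted p = 0.0161), while Prkag2, the gamma 2 subunit, fell (-1.49, limma adjusted p = 0.0328). The other gene that rose was Ddit4, which encodes REDD1, a stress-induced activator of the TSC complex (2.09, limma adjusted p = 0.0119). Prkag2 and Ddit4 were named after their values were seen, and the Tsc2 KO calls of Prkag1, Prkag2 and Ddit4 were not recomputed under the alternatives. In Raptor KO none of these genes was called, and Prkab1 averaged 149 ± 19.1 units in Raptor KO and 189 ± 34.1 in Raptor fl/fl. The Raptor effect minus the Tsc2 effect was -1.60 for Prkab1, -1.30 for Prkaa1 and -0.89 for Prkag1 (limma adjusted p = 0.00454, 0.0116 and 0.0133); that of Prkag1 was lost without trend and robust estimation (0.0612).

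The catalytic PI3K gene Pik3cg was among those that fell in Tsc2 KO, at 149 ± 84.3 units in Tsc2 KO and 331 ± 46.4 in Tsc2 fl/fl, a log2 fold change of -1.28 (limma adjusted p = 0.0101). Leaving out Tsc2 KO replicate 3 (adjusted p = 0.0568) or Tsc2 fl/fl replicate 1 (0.0557) ended the call, as did fitting only the groups compared (0.0752). Of the 20 substrates, 3 rose and 1 fell. Eif4ebp1, the translation repressor 4E-BP1 that mTORC1 phosphorylates, stood at 526, 767 and 806 units in Tsc2 KO, against 313, 370 and 384 units in Tsc2 fl/fl (0.96, limma adjusted p = 0.00474, called in all 17 alternatives). Of the 13 Rag-Ragulator and folliculin genes, 2 rose: Flcn, the folliculin gene (0.83, limma adjusted p = 0.0125), and Lamtor3, a Ragulator subunit (0.81, limma adjusted p = 0.00992). Leaving out Tsc2 KO replicate 3 ended both calls (adjusted p = 0.0982 and 0.0504), as did leaving out Tsc2 fl/fl replicate 3 (0.0595 and 0.0535). The Flcn call was also lost without trend and robust estimation (adjusted p = 0.0565) and with only the groups compared (0.0598). The erythroid and macrophage markers that are higher in Tsc2 KO, given above, move with all these genes, as do the 3 of 9 GMP markers that fell, and their part was not tested.

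**Figure D5:**
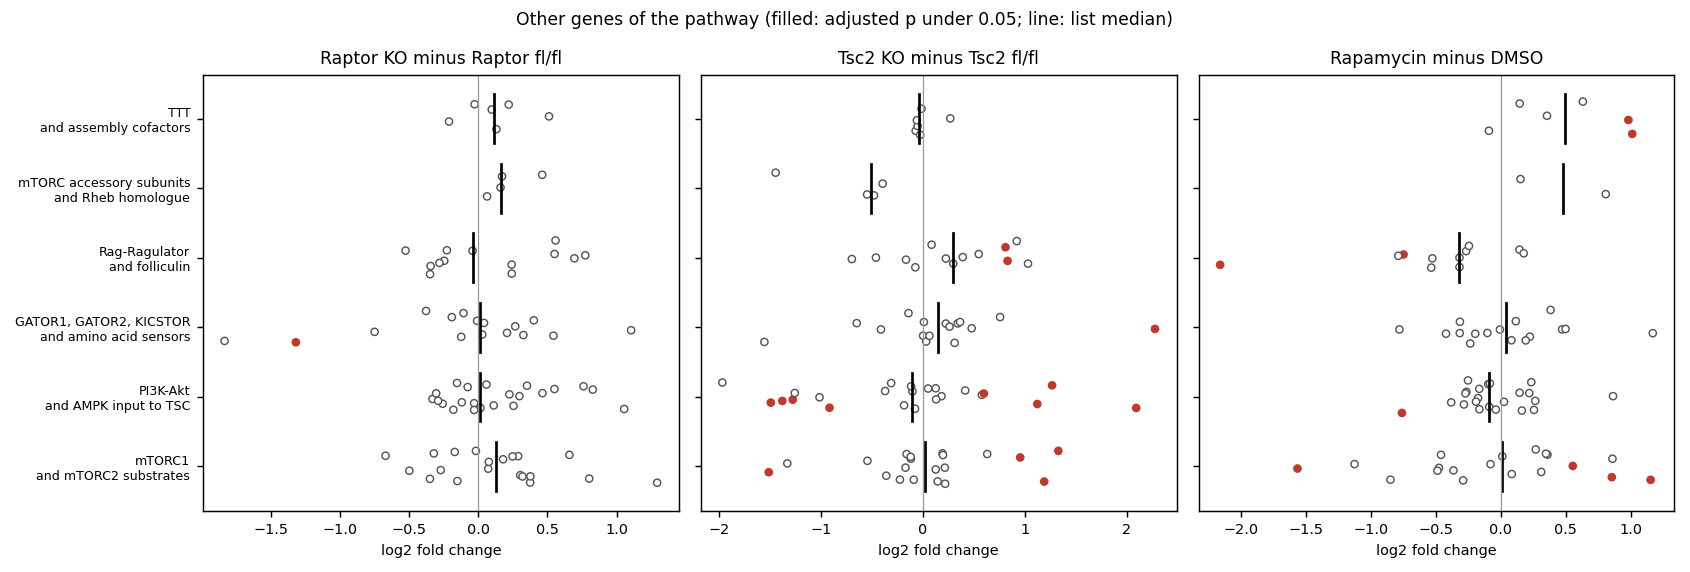
Log2 fold change of the other pathway genes by list in Raptor KO minus Raptor fl/fl, Tsc2 KO minus Tsc2 fl/fl and rapamycin minus DMSO; filled points have a limma adjusted p under 0.05 and the line is the list median. In Raptor KO 1 gene is filled, in Tsc2 KO 15 and with rapamycin 9.

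With rapamycin 5 of 76 tested pathway genes rose and 4 fell, and with SL0101 3 rose and 5 fell, against 5.4% and 6.35% of all genes, and 5.09% and 5.79%. Rps6, the ribosomal protein S6 gene whose product lies downstream of mTORC1 and whose processed copies could share reads, stood at 8046 and 8499 units with rapamycin and 5273 and 5156 with SL0101, against 3457 and 4012 units in DMSO (log2 fold change 1.15 and 0.49, limma adjusted p = 2.81e-06 and 0.0179). Rps6 was also higher with rapamycin than with SL0101 (0.67, limma adjusted p = 0.00312; 0.0668 without SL0101 replicate 1 and 0.0637 under quantile normalization). The SL0101 change of Rps6 was lost without DMSO replicate 1 (adjusted p = 0.249), DMSO replicate 2 (0.0689), SL0101 replicate 1 (0.173) or SL0101 replicate 2 (0.0943). Fnip2, a partner of folliculin, stood at 28.4 and 38.1 units with rapamycin and 46.3 and 71.2 units with SL0101, against 165 and 137 units in DMSO (-2.16 and -1.37, limma adjusted p = 8.41e-06 and 0.00166). All 14 alternatives called Fnip2 for rapamycin; for SL0101 it was lost without DMSO replicate 1 (adjusted p = 0.0731) and without SL0101 replicate 1 (0.0596).

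Ruvbl1, an ATPase that helps assemble mTOR complexes, averaged 206 ± 32.7 units with rapamycin and 232 ± 19.5 with SL0101, against 102 ± 19.6 in DMSO (SD, n = 2 each; 1.01 and 1.19, limma adjusted p = 0.001 and 0.000304). The rapamycin call of Ruvbl1 was lost without DMSO replicate 1 (adjusted p = 0.0583). Without trend and robust estimation, the Rps6 and Ruvbl1 calls were lost for rapamycin (adjusted p = 0.0536 and 0.0955), the Rps6, Fnip2 and Ruvbl1 calls for SL0101 (0.216, 0.105 and 0.0995) and the Rps6 call between the inhibitors (0.182).

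Between Hoxb8 DMSO and fl/fl GMPs 28 of 82 pathway genes were higher and 19 lower, against 21.6% and 28.1% of all genes. Grb10 and Prr5, an adaptor that mTORC1 phosphorylates and an mTORC2 accessory subunit, were listed at 0 in all 6 Hoxb8 libraries, while Grb10 averaged 86.7 ± 13.7 units in Raptor fl/fl and Prr5 10.3 ± 2.1 units. Deptor, a subunit that inhibits both complexes, averaged 22.3 ± 1.3 units in Hoxb8 DMSO (n = 2), 89.8 ± 12.4 in Raptor fl/fl and 75.7 ± 16.1 in Tsc2 fl/fl (n = 3 each), a log2 fold change of -1.83 (limma adjusted p = 6.25e-06). Fnip1, another folliculin partner, averaged 234.5 ± 7.6 units in Hoxb8 DMSO, 33.8 ± 6.9 in Raptor fl/fl and 45.6 ± 8.6 in Tsc2 fl/fl (2.57, limma adjusted p = 7.12e-08). Ruvbl1 was lower in Hoxb8 DMSO, with the 102 ± 19.6 units given above against 576 ± 13.7 in Raptor fl/fl and 581 ± 27.1 in Tsc2 fl/fl (-2.50, limma adjusted p = 4.86e-13). These 3 calls held in all 19 alternatives.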

How the data were processed

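RNA of 18 mouse libraries was analysed. The submitters' processing notes list Cuffnorm, Cufflinks 2.2.1, TopHat2 2.0.10 and BWA, and no source used here gives the genome build. The deposited values are a signal: the authors scaled each gene's fragment number by a factor of its library. Divided by the step that 1 fragment is worth, 98.4% to 98.6% of a library's values above 0 came out whole (tolerance 0.01), which gave fragments and 95% Poisson intervals that cover counting error only. Since not all values were whole, edgeR was not run; limma-voom on the recovered fragments was run as an alternative.

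Tests used limma 3.58.1 in R 4.3.3 on log2(value + 1), with an expression trend and robust estimation: 12 GMP libraries in 4 groups, 6 Hoxb8 libraries in 3, and all 18 for Hoxb8 DMSO minus fl/fl GMPs. Fold changes are on that scale, which understates those of low genes. Genes needed a value of 1 in at least 3 GMP or 2 Hoxb8 libraries (2 in the fit of 18). P-values were adjusted by Benjamini-Hochberg over all genes of a comparison, at 0.05. The script was tested on simulated data. Exon lengths and overlaps came from GENCODE M21, and promoters from RefSeq, where all 10 members were found by symbol. Not every RefSeq start was found in a GENCODE transcript, as given above. Neither source is known to be the authors' annotation.

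All 10 members are named; from each of 6 pathway lists up to 3 genes that passed per comparison could be named, and part of these is. For Rptor and Tsc2, the 3 genes with the highest r are named. Prkag2 and Ddit4 lie past that limit, and others there are not described. Members and lists were chosen with earlier results of these data known. Deviations of same-numbered libraries from their group means correlated at 0.048, 0.068 and 0.019 in the Raptor line, 0.371, 0.466 and -0.014 in the Tsc2 line, and 0.080 and 0.131 in Hoxb8 cells. Different-numbered libraries gave -0.052 to 0.006 in the Raptor line and -0.48 to 0.16 in the Tsc2 line, where replicate 2 is male in both groups. In Hoxb8 cells they give the same values with the sign reversed. Whether the numbers mark pairs is not known. The main fits did not take them as pairs, and the replicate block did. Alternatives covered trend and robust estimation, quantile and total scaling, filter, pseudocount, replicate block, groups in the fit, voom weights, both male libraries and each library.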

Additional observations from a re-analysis of the deposited data

Results flagged for a closer look

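These results stand out because the change in 1 pair of groups differed from the change in the other by a test of the difference itself (limma, adjusted over all genes). Between the Raptor and Tsc2 knockouts, the Raptor effect minus the Tsc2 effect on the log2 scale was 1.11 for Tsc2, the gene targeted in 1 of the lines. It was -1.18 for Sesn1, -2.60 for Gatsl2, -1.69 for Lpin1 and -0.884 for Eif4ebp1, and 1.89 for Prkca. For the AMPK subunit genes it was -1.60 for Prkab1, -1.30 for Prkaa1 and -0.89 for Prkag1. The differences of Tsc2, Prkab1 and Prkaa1 were called in all 22 alternatives, that of Prkag1 in 21 and that of Sesn1 in 20. Those of Lpin1, Eif4ebp1 and Prkca were called in 14, 10 and 10, and that of Gatsl2 in 5 of 21. In Hoxb8 cells, the rapamycin effect minus the SL0101 effect was -0.698 for Rheb, called in 10 of 14.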

How the results depend on the processing

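Of 1160 member values over all alternatives, 702 outside single-library fits and 388 in them kept their direction and side of the threshold. Tsc2 in Tsc2 KO was called in 17 of 17 (log2 fold change -1.45 to -1.28) and Rptor in Raptor KO in 0 of 16. The planned edgeR test was not run, since the fragments were not accepted as whole reads; a lone library left in a group is assumed to vary like the others. The cause of each shift below was not tested. All genes called without trend and robust estimation came to 215 in Raptor KO (main 522), 929 in Tsc2 KO (1638), 714 for the difference (1646), 188 with rapamycin (1386), 97 with SL0101 (1284) and 14 for rapamycin minus SL0101 (1047). With only the groups compared they came to 1249 in Raptor KO, 471 in Tsc2 KO and 542 for rapamycin minus SL0101. With rapamycin 1 member (Rptor) was called under quantile normalization, a common total, a filter at 10, voom weights and the replicate block; Rheb was lost between the inhibitors (0 members) without trend and robust estimation and with only the groups compared. The replicate block gave 706 genes in Raptor KO, 1882 in Tsc2 KO, 1857 with rapamycin, 1828 with SL0101, 1691 for rapamycin minus SL0101, 1855 for the difference and 6987 for Hoxb8 DMSO minus fl/fl GMPs, and changed no other member's call. Leaving out 1 library gave 146 to 402 genes in Raptor KO, 601 to 2498 in Tsc2 KO (2498 without Tsc2 KO replicate 1), 897 to 2519 for the difference, 540 to 1164 with rapamycin (members 0 to 1), 323 to 868 with SL0101, 128 to 863 for rapamycin minus SL0101 (members 0 to 1) and 2 to 5 members for Hoxb8 DMSO minus fl/fl GMPs. In that comparison Rheb was lost under quantile normalization (adjusted p = 0.087) and Rictor under a common total (0.0523), and Tsc2 was gained at a filter of 10 (0.0485). Outside single-library fits, signs reversed for Akt1s1 (0.043) and Rheb (-0.044) in Tsc2 KO and Akt1s1 (-0.032) in the difference under quantile normalization, for Mapkap1 (-0.11), Akt1s1 (0.22) and the difference of Akt1s1 (-0.16) without the male libraries, and for Rictor with rapamycin under a common total (-0.026) and voom weights (-0.013). Leaving out 1 library moved uncalled log2 fold changes across 0, over these ranges. In Raptor KO they were -0.061 to 0.20 for Akt1s1, -0.64 to 0.040 for Mlst8 and -0.18 to 0.12 for Tsc1. In Tsc2 KO they were -0.22 to 0.11 for Akt1s1, -0.062 to 0.22 for Mapkap1, -0.038 to 0.13 for Rheb, -0.24 to 0.10 for Rptor and -0.15 to 0.36 for Tbc1d7. For the difference they were -0.047 to 0.28 for Akt1s1, -0.35 to 0.33 for Mlst8 and -0.30 to 0.30 for Rictor. With rapamycin they were -0.22 to 0.19 for Akt1s1, -0.17 to 0.18 for Rictor and -0.34 to 0.14 for Tbc1d7. With SL0101 they were -0.25 to 0.20 for Mapkap1, -0.46 to 0.046 for Mlst8 and -0.17 to 0.20 for Mtor. For rapamycin minus SL0101 they were -0.34 to 0.11 for Mapkap1, -0.13 to 0.38 for Mlst8 and -0.11 to 0.37 for Tbc1d7, and for Hoxb8 DMSO minus fl/fl GMPs -0.029 to 0.33 for Tbc1d7.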
